A study of Drosophila melanogaster with 3 samples.

Results

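Aac11 and 9 genes of the Acinus, exon junction and mRNA export machinery were followed across 3 RNA libraries of Drosophila melanogaster larvae. The set was chosen by gene symbol: Aac11, hkl (the Acinus gene, current symbol Acn), RnpS1, Pnn, Hel25E, Ref1, sbr, Nxt1, tsu and mago. Of the 10 symbols, 9 were found as written among the 13990 genes of the deposited tables. Ref1 was found under Aly, an older symbol of the same gene, and is a different row from aly, a testis transcription regulator whose symbol differs from it by case alone.

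The Act>Aac11-RNAi library came from larvae with the ubiquitous Actin5C-Gal4 driver and a UAS hairpin (IR) against Aac11. The enGFP+Yki+Aac11-IR library, called the Yki library here, carries in its label an engrailed-GFP element, the growth-promoting coactivator Yorkie and the same hairpin target. The Act>control library has the driver and no hairpin in its label. All were described as wandering third-instar animals reared at 25 degrees Celsius in a cycle with 12 hours of light and selected for GFP. Each Act genotype pooled 10 to 20 larvae, while for the Yki library neither the hairpin's driver nor how many animals were pooled is stated in the labels. Each group is 1 library, so no difference below has a replicate check, and no p-value or standard deviation is given.

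Aac11 is the fly ortholog of mammalian API5, a nuclear protein known to bind Acinus and to counter Acinus-dependent DNA fragmentation in dying cells. In flies it was also identified as a gene whose loss raises E2F1-dependent cell death. Acinus joins RnpS1 and the SAP18 protein in the ASAP complex, while Pinin can take the place of Acinus in the related PSAP complex. Both sit on the exon junction complex, which splicing leaves on mRNA and whose core includes the Tsunagi (Y14) and Mago nashi proteins. Export then runs from the ATPase UAP56, encoded by Hel25E, through the adaptor encoded by Ref1 to the export receptor pair of sbr (NXF1) and Nxt1.

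Levels were given in FPKM, fragments per kilobase of transcript scaled to library size, so they can be set side by side between genes. The Yki library stands in a table of its own that was normalized separately, and values set across the tables are descriptions. Depth read back from the steps of low FPKM values was about 30900000 fragments in the RNAi library, 17700000 in the Yki library and 6000000 in the control, so the control values are the least precise. The sample labels name wing disc cells, whereas the protocol describes grinding of entire larvae. All 7 wing disc markers were above 1 FPKM in every library, with summed levels of 200 FPKM in the RNAi library, 488 in the Yki library and 146 in the control. Testis markers summed to 763 FPKM in the RNAi library, 0.869 in the Yki library and 2887 in the control, and all 7 were lower by 2-fold or more in the RNAi library than in the control, while 3 were listed at 0 in the Yki library. Fat body markers summed to 9117, 21.1 and 13292 FPKM in the RNAi, Yki and control libraries. Their medians were 1130, 2.81 and 1106 FPKM, and 1 of 6 was lower by 2-fold or more with RNAi. Muscle markers summed to 209, 11.5 and 372 FPKM, and midgut markers to 143, 0.159 and 69.5 FPKM. Hemocyte markers summed to 97.3, 2.33 and 97.3 FPKM. Salivary gland markers summed to 6.20, 7.81 and 0.387 FPKM, with 4 of 5 listed at 0 in the control. The male dosage compensation RNAs roX1 and roX2 summed to 54.2, 293 and 265 FPKM, and both were lower by 2-fold or more with RNAi. Neuron markers summed to 97.9, 11.1 and 61.6 FPKM, and 2 of 5 were higher by 2-fold or more with RNAi. The Yki library thus differed from both Act libraries in these markers, across separately normalized tables. Its wing disc, salivary gland and roX sums were the highest, and its testis, fat body, muscle, midgut, hemocyte and neuron sums the lowest. The part of this sex and tissue content in the values below was not tested. In these bulk samples, fewer cells of a type and less RNA per cell cannot be told apart.

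The RNA of the targeted gene was lower in the RNAi library, by slightly less than 2-fold. Aac11 (FBgn0286781, current symbol cass) lies on the minus strand of chromosome 2L from 17474912 to 17477888 in Release 6 (dm6) coordinates, and its 1 annotated transcript of 2458 nt has 6 introns and overlaps no other gene. It measured 78.1 FPKM in the RNAi library, 117 FPKM in the Yki library and 150 FPKM in the control. The RNAi level was 47.9% below the control level and just above the value of 75.0 FPKM that would mark a 2-fold difference. About 5455 fragments lay behind the RNAi value and 2031 behind the control value, which gave a log2 FPKM ratio of -0.94 with a 95% counting interval from -1.01 to -0.87. On the log2(FPKM + 1) scale used for calls, which understates changes of low genes, the ratio was -0.93, and no call was made. Of 11330 genes kept at a mean of at least 1 FPKM over the Act libraries, 17.4% had a log2 ratio at or below that of Aac11. Among the 7566 of these genes that also reached 1 FPKM in the Yki library, called Yki-expressed genes here, 3.65% lay below it.

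**Figure D1:**
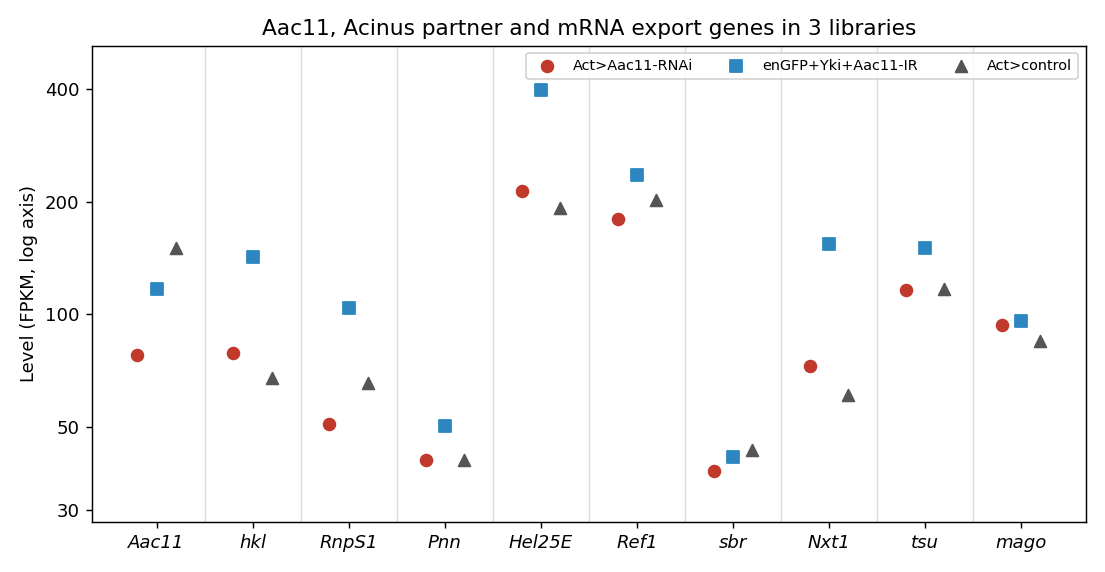
Level of each of the 10 genes in FPKM on a log axis, with 1 point per library for Act>Aac11-RNAi (circles), the Yki library (squares, normalized separately) and Act>control (triangles). Aac11 is the gene with the widest gap between the Act libraries, at 78.1 FPKM with RNAi and 150 FPKM in the control.

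The partner genes as a group stayed near the control level. Of the 10 genes, 0 were higher and 0 were lower by 2-fold or more, where 3.70% of kept genes were higher and 17.0% lower by that rule. Among Yki-expressed genes, a restriction made after seeing the data, 2.70% were higher and 3.22% lower. The median log2 ratio of the 9 partners was 0.00, beside -0.03 for all kept genes, and the partners spanned -0.37 to 0.25. Of the 10 genes, 8 lay within 20% of the control level, the exceptions being Aac11 and RnpS1. The share of all genes within 20% is not given. The quartiles of the log2 ratio were -0.48 and 0.28 for kept genes and -0.22 and 0.30 for Yki-expressed genes, so such small differences were common. All 10 genes passed the filter on low values.

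Within the Acinus complexes, the Acinus gene and the gene of its partner RnpS1 lay on opposite sides of the control level. hkl (chromosome 2L, 19045355 to 19048817, plus strand, 3 transcripts) measured 79.0 FPKM in the RNAi library, 142 FPKM in the Yki library and 67.8 FPKM in the control. Its log2 FPKM ratio between the Act libraries was 0.22, with a counting interval from 0.12 to 0.32. RnpS1 (chromosome 3R, 9552034 to 9553747), which encodes the RNA-binding subunit shared by ASAP and PSAP, measured 50.9 FPKM in the RNAi library, 104 FPKM in the Yki library and 65.8 FPKM in the control. This was the lowest ratio among the partners, at -0.37 with an interval from -0.52 to -0.22. Only 52 nt of RnpS1 overlap its neighbour CG9386 on the other strand. Pnn (chromosome 3R, 9740899 to 9742844), the Pinin gene, was nearly level at 40.8 FPKM in the RNAi library, 50.5 FPKM in the Yki library and 41.0 FPKM in the control. The gene of the SAP18 subunit, Bin1, which belongs to the wider list of related genes, measured 95.5, 146 and 116 FPKM in the RNAi, Yki and control libraries, with a log2 FPKM ratio of -0.28 and an interval from -0.46 to -0.10. The difference of log2 ratios between hkl and RnpS1 was 0.59, with a counting interval from 0.41 to 0.77, and it does not depend on how the libraries were scaled. It does not account for transcript length: hkl has a median transcript length of 2884 nt and RnpS1 1370 nt, and kept genes in their length deciles had medians of 0.13 and -0.19. With these medians subtracted, hkl stood at 0.09 and RnpS1 at -0.18.

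Without a length correction, the exon junction genes were close to the control. tsu measured 116 FPKM in the RNAi library, 150 FPKM in the Yki library and 117 FPKM in the control, with a log2 FPKM ratio of 0.00 and an interval from -0.17 to 0.17. Its heterodimer partner mago measured 93.8, 96.1 and 84.7 FPKM in the RNAi, Yki and control libraries, and the interval of its ratio ran from 0.00 to 0.29. The genes lie apart on chromosome 2R, tsu at 9110799 to 9111578 and mago at 21128577 to 21129737. The 3′ part of mago shares 275 nt with the Magi gene on the opposite strand, and the labels do not say whether the counting used strand. The RNA helicase gene eIF4AIII, the further core component, measured 77.5 FPKM in the RNAi library, 139 FPKM in the Yki library and 79.0 FPKM in the control.

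Among the export genes, the UAP56 ATPase gene and its adaptor were the most abundant. Hel25E (chromosome 2L, 5539326 to 5542314, minus strand) measured 213 FPKM in the RNAi library, 397 FPKM in the Yki library and 192 FPKM in the control. Ref1 (chromosome 3R, 7077904 to 7080387, minus strand) measured 180 FPKM in the RNAi library, 236 FPKM in the Yki library and 202 FPKM in the control. Their log2 FPKM ratios had opposite signs, 0.15 for Hel25E with an interval from 0.07 to 0.23, and -0.17 for Ref1 with an interval from -0.25 to -0.08. The sign for Ref1 depended on processing, since it was 0.05 with upper quartiles set equal and 0.02 with the length decile median subtracted. The receptor gene sbr (chromosome X, 10832752 to 10847092) was the scarcest of the set in the RNAi and Yki libraries, at 38.3 FPKM in the RNAi library, 41.7 FPKM in the Yki library and 43.6 FPKM in the control. Its ratio was -0.19, with an interval from -0.33 to -0.04, and its log2 ratio turned to 0.03 with upper quartiles set equal. The span of sbr holds 3 other annotated genes, 1 of them on the same strand. Its cofactor gene Nxt1 (chromosome 2R, 23811321 to 23811974) measured 72.7 FPKM in the RNAi library, 154 FPKM in the Yki library and 60.8 FPKM in the control. Only about 120 control fragments lay behind Nxt1, and the interval of its ratio of 0.26 ran from -0.03 to 0.54.

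**Figure D2:**
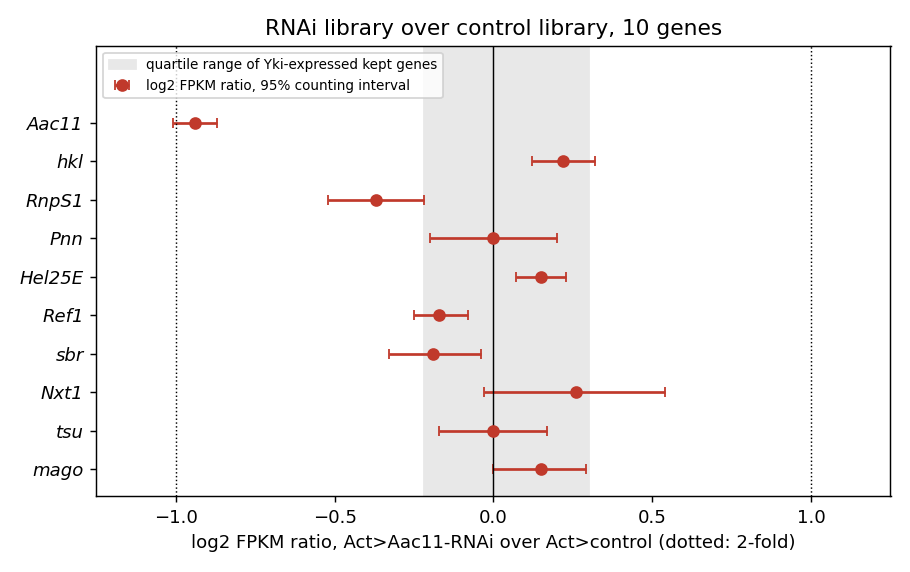
Log2 FPKM ratio of Act>Aac11-RNAi over Act>control for the 10 genes, without pseudocount, with bars for the 95% counting interval, which leaves out differences between animals. Dotted lines mark 2-fold, and the grey band runs from the lower to the upper quartile, -0.22 to 0.30, of Yki-expressed genes on the log2(FPKM + 1) scale. Aac11 at -0.94 and RnpS1 at -0.37 lie outside the band on the low side.

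Aac11 was lower than each of its 9 partners in relative terms. The difference of log2 ratios, Aac11 minus partner, ran from -0.57 against RnpS1 to -1.20 against Nxt1, and no counting interval reached 0. Against hkl it was -1.16, with an interval from -1.28 to -1.04, which is a 2.23-fold shift between the 2 transcripts. Such differences of log2 ratios do not change with library scaling, but they do not account for transcript length. With length decile medians subtracted, Aac11 stood at -0.97, hkl at 0.09, RnpS1 at -0.18 and Nxt1 at 0.60.

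Hel25E and Ref1 held the top places in every library, and Pnn and sbr the bottom places. In the RNAi library Hel25E, Ref1, tsu and mago came first, followed by hkl, Aac11 and Nxt1, and then RnpS1, Pnn and sbr. Neighbouring levels there overlapped in their counting intervals for hkl with Aac11, Aac11 with Nxt1, and Pnn with sbr. In the Yki library the order was Hel25E, Ref1, Nxt1, tsu, hkl, Aac11, RnpS1, mago, Pnn and sbr, and 3 of 9 neighbouring pairs overlapped (Nxt1 with tsu, tsu with hkl, RnpS1 with mago). In the control the order was Ref1, Hel25E, Aac11, tsu, mago, hkl, RnpS1, Nxt1, sbr and Pnn, and 4 of 9 pairs overlapped, the first being Ref1 with Hel25E. Aac11 thus held place 6 in the RNAi library, place 6 in the Yki library and place 3 in the control. Among all genes of each library, the partners ranked from percentile 76.9 to 96.4 in the RNAi library, 80.4 to 98.4 in the Yki library and 74.6 to 95.6 in the control. Genes listed at 0 numbered 929 in the RNAi library, 3460 in the Yki library and 1571 in the control, and a larger number of zeros raises the percentiles of expressed genes.

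Ratios between genes within 1 library are free of the scaling and can be set side by side across the tables. The partner with the median level was hkl in every library, and Aac11 relative to it was 0.989 in the RNAi library, 0.824 in the Yki library and 2.21 in the control. Relative to the geometric mean of all 9 partners it was 0.938 in the RNAi library, 0.953 in the Yki library and 1.81 in the control, so both hairpin libraries were below the control by either measure. It made up 8.11% of the summed FPKM of the 10 genes in the RNAi library, 7.88% in the Yki library and 14.6% in the control. A library with the Yki construct and no Aac11 hairpin was not analysed here, so the part of the hairpin in the Yki value cannot be told apart from that of tissue and genotype. The ratio of hkl to RnpS1 was 1.55 in the RNAi library, 1.38 in the Yki library and 1.03 in the control. The ratio of the cofactor gene Nxt1 to its receptor gene sbr was 1.90, 3.69 and 1.4 in the RNAi, Yki and control libraries. The ratio of mago to tsu was 0.806, 0.639 and 0.726, with the RNAi and control values differing by less than counting error.

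**Figure D3:**
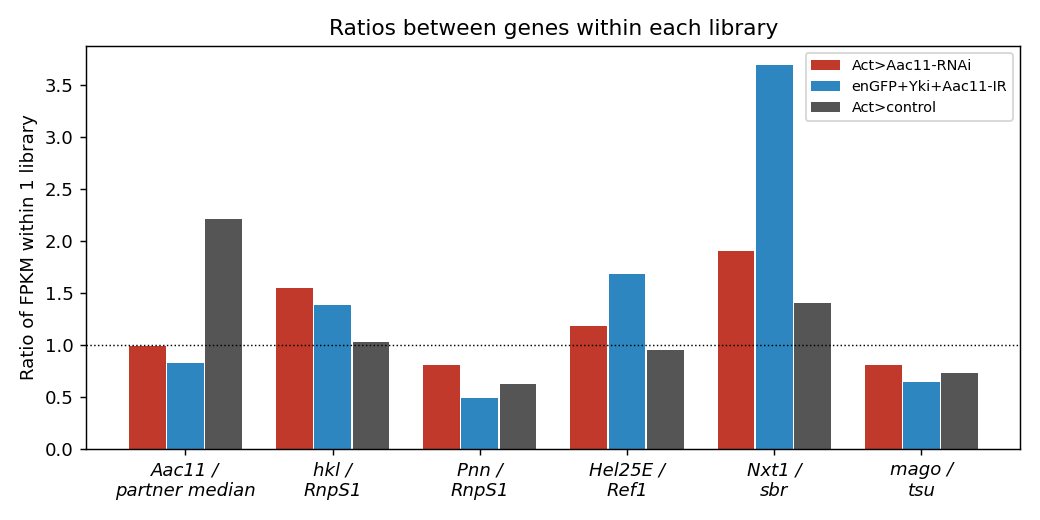
Ratio of FPKM values between named genes within each library, with 1 bar per library and no error bars, as there are no replicates. The first group shows Aac11 over the median of its 9 partners, which is hkl in each library, at 0.989 in the RNAi library, 0.824 in the Yki library and 2.21 in the control.

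Partner levels in the Yki library exceeded those of both Act libraries for 8 of 9 genes, sbr being the exception. The tables were normalized separately, and the share of all genes with this order is not given. The count therefore does not set the partners apart from other genes. Partner levels in the Yki library ran from 41.7 FPKM for sbr to 397 FPKM for Hel25E. The spread between the highest and the lowest partner was 9.51-fold in the Yki library, 5.57-fold in the RNAi library and 4.94-fold in the control. The part of tissue content in these levels was not tested. In that library yki itself measured 4153 FPKM, beside 59.7 FPKM in the RNAi library and 64.3 FPKM in the control.

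A wider set of 78 genes in 10 lists covered export, splicing, decay, DNA fragmentation with E2F, and transcripts with EJC-dependent splicing. All 78 passed the filter, 1 was higher and 2 were lower by 2-fold or more, where 3.70% of kept genes were higher and 17.0% lower (2.70% and 3.22% of Yki-expressed genes). The median log2 ratio of the 78 genes was 0.06, beside -0.03 for all kept genes. The 6 THO complex genes, whose products couple transcription to export, had a median of -0.08, from tex at -0.31 to tho2 at 0.13. The 6 further genes of the exon junction and Acinus list had a median of -0.02, from Bin1 at -0.28 to the splicing coactivator gene SRm160 at 0.25. The 6 genes of nonsense-mediated decay had a median of 0.08, between Upf3 at -0.26 and Upf2 at 0.17. The 11 SR splicing factor and kinase genes had a median of 0.00, with the highest ratio, 0.70, for the kinase gene Doa.

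On the log2(FPKM + 1) scale, 3.70% of kept genes were higher and 17.0% lower by 2-fold or more (2.70% and 3.22% of Yki-expressed genes). The 24 nuclear pore and pore-level export genes had 0 members past 2-fold on this scale. Their median was 0.05, and the extremes were Nup58, at 13.5 FPKM in the RNAi library, 28.1 FPKM in the Yki library and 27.4 FPKM in the control, and Nup153, at 23.0, 53.8 and 14.8 FPKM. The log2 ratios were -0.97 for Nup58 and 0.61 for Nup153. Without a pseudocount Nup58 was at -1.02, past 2-fold, with a counting interval from -1.22 to -0.81. The next lowest genes, named after their values were seen, were Nup54 at -0.70, Nup44A at -0.65, Nup62 at -0.43 and mbo at -0.41. The 8 cap and poly(A) binding genes had a median of 0.19. They lay between the cap-binding gene Cbp20, at 69.9 FPKM in the RNAi library and 98.3 FPKM in the control, and the poly(A)-binding gene pAbp, at 1042 FPKM in the RNAi library and 705 FPKM in the control.

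Genes linked to Aac11 or to the exon junction complex by function did not pass 2-fold on the log2(FPKM + 1) scale. Among all kept genes 3.70% were higher and 17.0% lower by that rule, and among Yki-expressed genes 2.70% and 3.22%. At these shares, 0 calls in lists this small do not set the listed genes apart from other genes. Among 7 genes of DNA fragmentation and E2F, the median was 0.21. Drep-4, the nuclease gene of that family, measured 26.1 FPKM in the RNAi library, 15.2 FPKM in the Yki library and 24.0 FPKM in the control. The gene Dp, the E2F dimer partner, had the highest ratio of the list, at 0.47, with 90.7 FPKM in the RNAi library and 65.2 FPKM in the control, and Drep-3 the lowest, at -0.89. Without a pseudocount Drep-3 was at -1.04, past 2-fold, with a counting interval from -1.43 to -0.62, on 4.38 FPKM in the RNAi library and 8.99 FPKM in the control. The list of transcripts known in flies to need the exon junction complex for splicing of particular introns held 2 genes, which are examples and not the full set, and both had positive log2 ratios. The MAP kinase gene rl measured 216 FPKM in the RNAi library, 146 FPKM in the Yki library and 163 FPKM in the control, and piwi 3.98, 2.50 and 2.29 FPKM. The piwi value rested on about 38 control fragments, and gene-level FPKM does not show how a transcript was spliced.

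**Figure D4:**
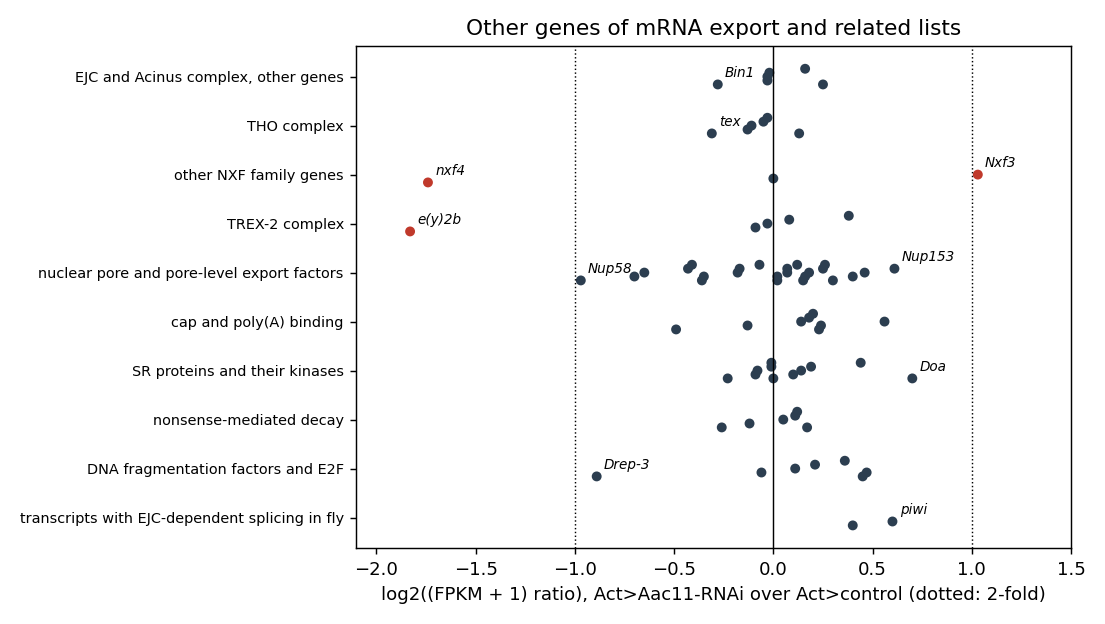
Log2 ratio of FPKM + 1, Act>Aac11-RNAi over Act>control, for 78 genes in 10 lists, with 1 point per gene and dotted lines at 2-fold. Red points passed 2-fold: nxf4 at -1.74, e(y)2b at -1.83 and Nxf3 at 1.03.

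Both listed genes lower by 2-fold or more were relatives of general export factors and were under 1 FPKM in the Yki library. nxf4, an NXF family gene, measured 8.46 FPKM in the RNAi library, was listed at 0 in the Yki library and measured 30.6 FPKM in the control, a log2 ratio of -1.74 with about 237 fragments in the RNAi library and 167 in the control. e(y)2b, a paralog of the TREX-2 subunit gene e(y)2, measured 11.5 FPKM in the RNAi library, 0.647 FPKM in the Yki library and 43.6 FPKM in the control, a log2 ratio of -1.83. The general gene of each pair was near the control, with log2 ratios of -0.18 for sbr and -0.09 for e(y)2. The second REF adaptor gene ref2, named after its values were seen and outside the lists, had the same pattern, with 3.88 FPKM in the RNAi library, 0.165 FPKM in the Yki library and 14.5 FPKM in the control. Relative to the general gene in the same library, nxf4 stood at 22.1% of sbr in the RNAi library and 70.3% in the control, e(y)2b at 17.9% of e(y)2 in the RNAi library and 63.5% in the control, and ref2 at 2.15% of Ref1 in the RNAi library and 7.18% in the control. Testis markers moved alongside, with a median log2 ratio of -1.84 over 7 genes and 0.0684 FPKM in the Yki library at their median. Their part in the values of nxf4, e(y)2b and ref2 was not tested. The kept genes that were not Yki-expressed numbered 3764, or 33.2% of kept genes, and 44.6% of them were lower by 2-fold or more with RNAi. Only 3 of the 78 list genes belonged to this group, nxf4, e(y)2b and Drep-3.

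Nxf3, listed as CG32135 in the tables and known in flies for the export of piRNA precursors in the germline, went the other way. It measured 4.47 FPKM in the RNAi library, 8.66 FPKM in the Yki library and 1.67 FPKM in the control, a log2 ratio of 1.03 that rested on about 63 control fragments. The log2 FPKM ratio without pseudocount was 1.42, with a counting interval from 1.04 to 1.80. Its call ended with a pseudocount of 5 FPKM and with the length decile median subtracted. The further germline relative nxf2 measured 6.83 FPKM in the RNAi library, 15.4 FPKM in the Yki library and 6.82 FPKM in the control.

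**Figure D5:**
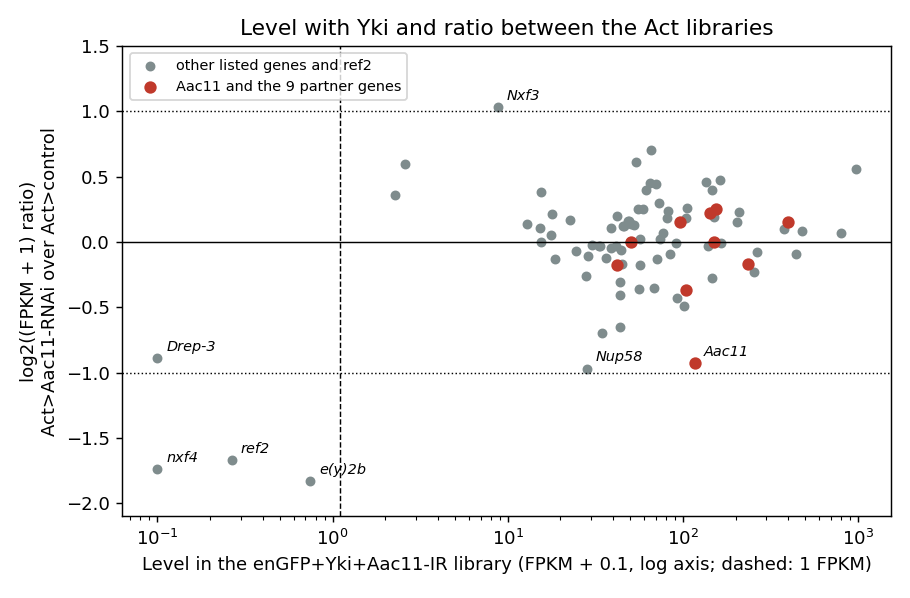
Level in the separately normalized Yki library (FPKM + 0.1, log axis, dashed line at 1 FPKM) against the log2 ratio of FPKM + 1, Act>Aac11-RNAi over Act>control, for Aac11 and its 9 partners (red) and the listed genes with ref2 (grey). Aac11, at 117 FPKM and -0.93, stands apart from nxf4, ref2 and e(y)2b, which are under 1 FPKM in the Yki library.

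The genes most like Aac11 over the 3 libraries, by the distance of log2(FPKM + 1) values, were snoRNA:Psi28S-3186 at a distance of 0.0483, mRpS21 at 0.220, Pdsw at 0.229, CG12859 at 0.259 and CG7830 at 0.282. The nearest protein-coding gene, mRpS21, encodes a mitochondrial ribosomal protein and measured 89.8 FPKM in the RNAi library, 119 FPKM in the Yki library and 141 FPKM in the control. Pdsw, which encodes a subunit of respiratory complex I, measured 81.7, 126 and 131 FPKM in these libraries. These are genes that the hairpin is not labelled to target.

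The 10 genes differ in position and structure. They lie on 4 chromosome arms, with 3 each on 2L, 2R and 3R and 1 on X. Apart from sbr, whose gene spans 14341 nt, they are compact, from 654 nt for Nxt1 to 3463 nt for hkl. Intron numbers ran from 1 in tsu and mago to as many as 9 in the longest sbr transcript. The exon junction and Nxt1 genes have short transcripts, at 691 nt for tsu, 1103 nt for mago and at most 540 nt for Nxt1. Kept genes in the length decile of tsu and Nxt1 had a median log2 ratio of -0.35, and with it subtracted tsu stood at 0.34 and Nxt1 at 0.60. In the decile of mago the median was -0.24, and with it subtracted mago stood at 0.39. With decile medians subtracted, 7 of 9 partners had positive values, the smallest being 0.02 for Ref1. The subtraction itself set the median of kept genes to 0.00, and the share of them with positive values is not given.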

How the data were processed

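The authors deposited FPKM values for 3 libraries in 2 tables, with all columns used. Build dm6 and the tools TopHat2 2.0.12, Cuffdiff 2.2.1 and CASAVA 1.4 appear in the submitters' processing notes, with no role given. For annotation, strand setting and scaling, nothing is stated there or in the labels. Gene models came from Ensembl 115 (dm6 coordinates), to which 98.2% of symbols were matched, and older symbols from RefSeq. Log2 ratios were taken of FPKM + 1, RNAi over control, for genes with a mean over both Act libraries of 1 FPKM or more, and called at 2-fold. No ratio was formed between the tables.

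Depth was fitted to low values of 4268 single-transcript genes longer than 1000 nt, with an effective length 199 nt under the transcript length and tested on simulated data. In the RNAi, Yki and control libraries 83.7%, 88.6% and 80.6% of low values lay within 0.2 of a whole fragment. Fragments use the shortest annotated transcript, and 95% intervals (exact binomial for ratios, exact Poisson for levels, normal approximation for differences of ratios) cover counting error only. At 1 kilobase of transcript, 3 fragments equal 0.0970, 0.170 and 0.500 FPKM in these libraries.

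Named genes were the 10 members, every list gene past 2-fold, otherwise the list extremes, and the 5 genes nearest to Aac11, and 1 list extreme is not reported here. Also named, after their values were seen, were eIF4AIII, Drep-4, Nup54, Nup62, Nup44A, mbo, nxf2, e(y)2 and ref2. Members and lists were chosen with earlier results of these data known. Alternatives were other pseudocounts, rescalings and filters and a length correction. Python 3.11.15, pandas 2.3.3 and scipy 1.17.1 were used.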

Additional observations from a re-analysis of the deposited data

How the results depend on the processing

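The count of 0 of 10 genes past 2-fold held under all 9 alternatives, and the Aac11 log2 ratio stayed between -0.97 and -0.72. Setting the sums to 1000000 gave -0.80 for Aac11, 0.13 for the median of the 9 partners and 0.19 for the median of the other pathway genes. Setting upper quartiles of kept genes equal gave -0.72, 0.21 and 0.27. The median over every kept gene moved by 0.13 and 0.20 under these scalings. The share of higher genes among all calls was 17.9% as deposited, 23.7% with equal sums, 26.8% with equal upper quartiles and, among Yki-expressed genes alone, 45.5%. With the length decile median subtracted the partner median was 0.18, beside 0.00 for kept genes. Of 81 single partner values, 18 moved by more than the distance from the middle to the end of their counting interval, 3 changed sign and 0 passed 2-fold. The pathway genes at least 2-fold lower numbered 4 with a pseudocount of 0.1 FPKM and 0 among Yki-expressed genes, and the 1 higher gene was lost with a pseudocount of 5 FPKM, with length subtracted or with a filter at 5 FPKM. No paired analysis was possible because each group has 1 library. Control depth limits low genes most, and differences between animals were not measured.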
